A study of Mus musculus with 4 samples.

Results

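The genes described here are *Dicer1*, *Ago1*, *Ago2*, *Ago3*, *Ago4*, *Drosha*, *Dgcr8*, *Xpo5*, *Tarbp2* and *Prkra*, which encode the core proteins of microRNA (miRNA) and small interfering RNA (siRNA) production and the Argonautes that carry them. They were chosen by symbol, and all 10 were found among the 21957 genes measured, each under 1 identifier. The study followed mouse oocytes during meiotic maturation in culture, with or without tubastatin A (TubA), a small molecule made to inhibit the deacetylase HDAC6. Oocytes came from PMSG-primed B6D2F1 (C57BL/6 x DBA) females of 6 to 8 weeks, were stripped of cumulus cells and were cultured in M16 medium, and by the study's methods each RNA-seq library was made from a pool of 100 oocytes, although elsewhere the study speaks of single oocytes. GV oocytes, which still hold the nucleus called the germinal vesicle, were taken untreated at 0 h. MII oocytes were taken untreated at 12 h and kept if they had extruded a polar body, although the label of that sample calls it an embryo. TubA-10 and TubA-20 oocytes were cultured for 12 h with 10 and 20 μM TubA, which had been dissolved in DMSO. These doses stand in the sample titles, which are followed here, but the treatment entry of the TubA-10 sample reads 20 μM and that of the TubA-20 sample 11 μM. In the study, exposure to 20 μM TubA kept most oocytes from completing maturation, so in TubA-20 the drug and the stage reached cannot be told apart. There was 1 library per condition, so no difference below could be set against replicate error and none carries a p-value.

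Primary miRNA transcripts are cut in the nucleus by the Microprocessor, made of the RNase DROSHA and its RNA-binding partner DGCR8, and the hairpins that result are carried to the cytoplasm by exportin 5 (XPO5). DICER cuts hairpins and long double-stranded RNA into short duplexes, with TARBP2 or PRKRA as a double-stranded RNA-binding partner, and 1 strand is loaded into an Argonaute, of which AGO2 is the main slicer of matched targets. Growing mouse oocytes depend on DICER and AGO2 for endogenous siRNAs, while DGCR8 and the miRNA pathway are largely dispensable there. A shorter, oocyte-specific *Dicer1* transcript that starts in a retrotransposon is well known, but the values here are per gene and do not separate it from the somatic form. Fully grown oocytes are largely silent in transcription, and many stored mRNAs are masked, given longer poly(A) tails or degraded during maturation.

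The level of a gene is given in FPKM, mapped fragments of a gene divided by its transcript length and by the mapped total of its library, so that levels can be compared between genes. The difference between 2 libraries is the log2 ratio of FPKM + 1, a scale on which low values are damped, and a count of higher or lower genes means genes past 2-fold on it. FPKM is relative to the other RNA of its library, so RNA content per oocyte was not measured. Because mRNA was selected by its poly(A) tail, a change in amount and a change in tail length cannot be told apart.

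Sequences near the 3′ ends of the transcripts are shown because cytoplasmic polyadenylation elements (CPEs) in the last part of a 3′ UTR are known to take part in tail lengthening during oocyte maturation. In the principal GENCODE M21 transcript on GRCm38, the letters TTTTAT or TTTTAAT were searched in the sense strand of the 3′ UTR only. They were found in 7 of the 10 genes and in 54.4% of 20507 annotated 3′ UTRs. *Drosha*, *Tarbp2* and *Xpo5* held none, *Dgcr8* held its last one 804 nt from the annotated end, and the other 6 held at least 1 in the last 300 nt, as did 36.2% of the 15503 3′ UTRs of at least 300 nt. The 4 genes in which the last match began within 50 nt of the end are printed 5′ to 3′ with the match in capitals. They hold both members that were higher than in GV in each cultured library (*Dicer1* and *Ago3*) and a pair that was lower (*Ago1* and *Prkra*), so a match near the end was present on both sides. The poly(A) signal letters AATAAA or ATTAAA stood in the last 50 nt of *Dicer1* and *Ago3*, but not of *Ago1* or *Prkra*. Of the other members lower than in GV, *Ago2*, *Ago4*, *Drosha* and *Tarbp2* held them there, and *Dgcr8* and *Xpo5* did not. These matches describe letters only.
*Dicer1*, chr12:104687761-104687790, minus strand: tttctttttctTTTTAATaattgtagtcaa
*Ago3*, chr4:126332732-126332761, minus strand: gcagaaagctaataaagtTTTTAATcaaaa
*Ago1*, chr4:126435012-126435041, minus strand: ataaaaacaacagtggcTTTTATttctaaa
*Prkra*, chr2:76629904-76629933, minus strand: gagctctgctcaTTTTATtacacagctact

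The step between the lowest FPKM values put the depth of MII at 1.61 times, TubA-10 at 1.66 times and TubA-20 at 0.896 times that of GV, an indirect estimate. By the total reads stated in the study, the GV library was the smallest instead, so which of the pair was shallower is uncertain. All 8 oocyte markers were above 0 in every library, with summed levels of 9339 to 12796 FPKM, a sum led by *Oosp1*. Past 2-fold, 4 of the 8 were lower (*Figla*, *Zp1*, *Zp2* and *Zp3*) and 2 higher (*Gdf9* and *Oosp1*) in TubA-20 than at the GV stage, and *Figla*, *Zp2* and *Zp3* were also lower in TubA-20 than in MII. *Figla*, which encodes an oocyte transcription factor, was at 90.5 FPKM at the GV stage, 41.9 at MII, 70.2 under TubA-10 and 12.4 under TubA-20. That is the order of libraries of *Tarbp2*, which no other of the 8 oocyte markers had. The 13 cumulus and granulosa cell markers summed to 27.0 FPKM at the GV stage, 21.9 at MII, 20.6 under TubA-10 and 23.8 under TubA-20, with 2 to 4 of them at 0 in a library, among them *Foxl2* in all 4. *Nr5a2*, at 9.12 to 11.5 FPKM, and *Cyp19a1*, at 6.14 to 10.3, made up most of each sum, and neither passed 2-fold against GV. This pair was also named after the values were seen, and the sums say little about the rest of the list. *Inha*, another of these markers, was at 7.50 FPKM in GV and at 0.239 to 0.314 elsewhere. In the other direction *Ptx3* and *Tnfaip6*, named after their values were seen, were listed at 0 in GV and stood at 1.19 and 1.57 FPKM in TubA-20, so of the 13 genes 2 were past 2-fold higher and 1 lower there. The 7 blood cell markers summed to 1.64 to 2.26 FPKM, with 5 or 6 at 0. The part of these markers in the values of the 10 genes was not tested.

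Together the 10 genes summed to 166 FPKM at the GV stage, 133 at MII, 141 under TubA-10 and 121 under TubA-20. In each cultured library *Tarbp2* alone fell by more FPKM than this sum did. The other members together were therefore higher than in GV, although only *Dicer1* and *Ago3* among them were above it. *Drosha*, *Dicer1* and *Tarbp2* made up 84.8% to 86.7% of that sum in each library. Next in level were *Ago3*, *Xpo5*, *Ago2* and *Dgcr8*, all between 2.19 and 9.52 FPKM. *Prkra* reached 1 FPKM in 1 library, GV, and *Ago1* and *Ago4* in none. The mRNAs of the RNases *Drosha* and *Dicer1* and of *Tarbp2* were thus higher in every library than those of the Argonautes, *Dgcr8*, *Xpo5* and *Prkra*. Among the 3 most abundant genes the order changed with the library, since *Tarbp2* was the highest of the 10 in GV, the second in TubA-10 after *Dicer1*, and the third in MII and TubA-20 after *Dicer1* and *Drosha*. Lower in the order, *Xpo5* was above *Ago3* in GV and below it in the cultured libraries, and *Dgcr8* was below *Ago2* in GV and TubA-20 and above it in MII and TubA-10.

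**Figure D1:**
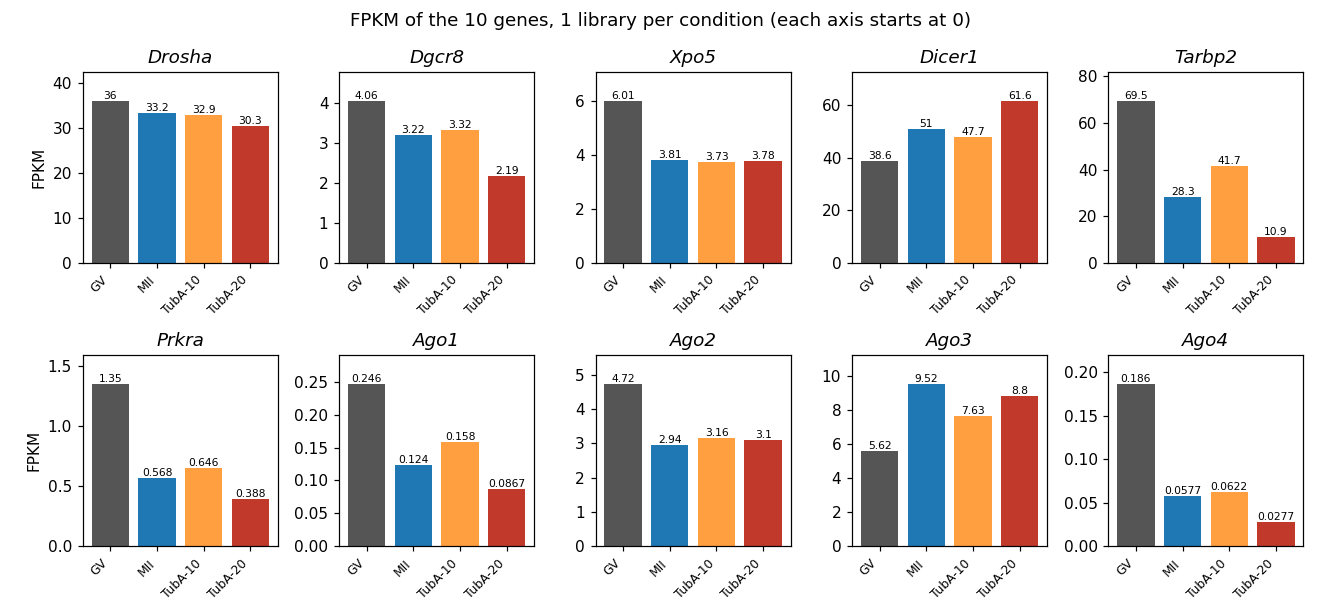
FPKM of each of the 10 genes (vertical axis, linear from 0, scaled per gene) in the GV, MII, TubA-10 and TubA-20 libraries, with 1 bar per library and no error bar because there was 1 library per condition. *Tarbp2* runs from 69.5 FPKM in GV to 10.9 in TubA-20, whereas *Dicer1* is lowest in GV at 38.6 and highest in TubA-20 at 61.6.

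Whether the machinery changed with maturation was asked by comparing each cultured library with GV. Past 2-fold lower than GV there was 1 of the 10 genes in MII (*Tarbp2*), against 8.34% of all genes, 0 in TubA-10, against 5.6%, and 1 in TubA-20 (again *Tarbp2*), against 11.7%. None of the 10 passed 2-fold higher, against 3.05% of all genes at MII, 0.742% under TubA-10 and 7.61% under TubA-20. With 10 genes these counts are near the background shares. *Dicer1* and *Ago3* lay above GV and the other 8 below it in each of the 3 cultured libraries, though the 3 comparisons share the GV library. The median log2 ratio of the 10 was -0.21 at MII, -0.19 under TubA-10 and -0.36 under TubA-20, beside 0 over all genes in each, of which 15281 were above 0 FPKM in GV. Among genes with at least 1 FPKM in 1 of both libraries, the medians over all genes were 0.04, 0.08 and 0.08. Those of the 8 members kept were -0.40, -0.34 and -0.52. When the MII and GV libraries were set to equal FPKM sums or equal *Gapdh*, *Drosha* moved to the other side of 0, as it did for TubA-10 with equal *Gapdh*.

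**Figure D2:**
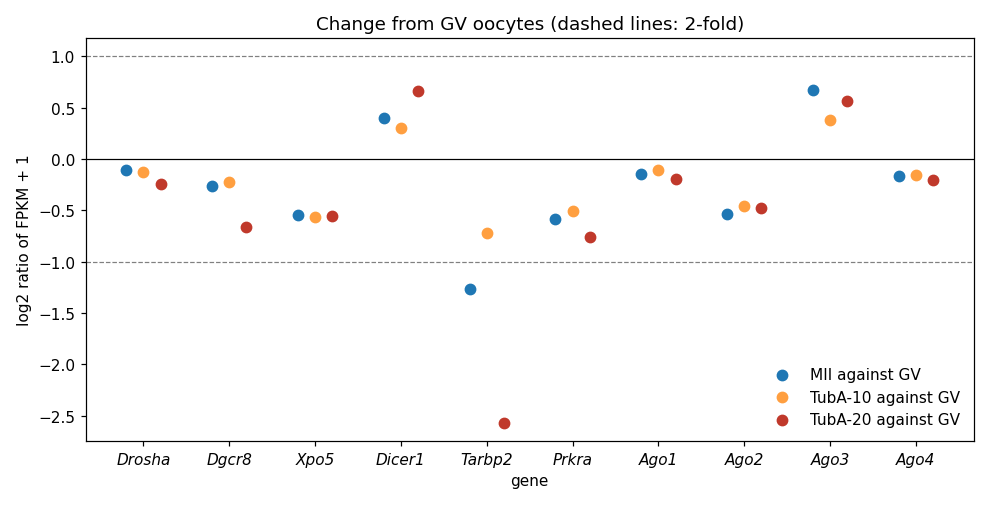
Log2 ratio of FPKM + 1 (vertical axis) of each of the 10 genes in MII, TubA-10 and TubA-20 against GV, with 1 point per comparison and dashed lines at 2-fold. *Tarbp2* is past the lower line in MII (-1.27) and TubA-20 (-2.57), *Dicer1* and *Ago3* lie above 0 in all 3 comparisons, and the other genes lie between the line and 0.

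The Microprocessor RNase gene *Drosha* (ENSMUSG00000022191.15, chr15:12824815-12935291, plus strand) was at 36.0 FPKM at the GV stage, 33.2 at MII, 32.9 under TubA-10 and 30.3 under TubA-20. Its highest level was 1.19 times its lowest, the narrowest range of the 10 genes, and its log2 ratio to GV lay between -0.24 and -0.11. *Dgcr8* (ENSMUSG00000022718.11, chr16:18253948-18289246, minus strand), which encodes the partner that recognizes the hairpin, was at 4.06 FPKM at the GV stage, 3.22 at MII, 3.32 under TubA-10 and 2.19 under TubA-20. TubA-20 was the lowest of the 4, with log2 ratios of -0.67 to GV and -0.40 to MII, neither past 2-fold. The mRNA of the enzyme exceeded that of its partner in every library, with *Drosha* at 8.87 times *Dgcr8* at the GV stage, 10.3 times at MII, 9.90 times under TubA-10 and 13.9 times under TubA-20. *Trmt2a* overlaps *Dgcr8* on the opposite strand, and the counting was strand-specific.

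The export receptor gene *Xpo5* (ENSMUSG00000067150.5, chr17:46202782-46243598, plus strand) was at 6.01 FPKM at the GV stage, 3.81 at MII, 3.73 under TubA-10 and 3.78 under TubA-20. The 3 cultured libraries lay close to each other and below GV, with log2 ratios to GV of -0.54, -0.57 and -0.55. Among themselves they differed by at most 0.02 on that scale, and the signs of these differences turned with the scaling of the libraries, for TubA-10 against MII with equal *Gapdh* and for TubA-20 against TubA-10 with all 4 scalings tried.

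*Dicer1* (ENSMUSG00000041415.9, chr12:104687742-104751952, minus strand), whose product makes the short duplexes of both pathways, was at 38.6 FPKM at the GV stage, 51.0 at MII, 47.7 under TubA-10 and 61.6 under TubA-20. GV was the lowest library and TubA-20 the highest, 1.60 times GV. The log2 ratios to GV were 0.39, 0.30 and 0.66, none past 2-fold. *Dicer1* and *Drosha* were nearly level in GV, at a ratio of 1.07, and *Dicer1* was 1.54 times *Drosha* in MII, 1.45 times in TubA-10 and 2.03 times in TubA-20.

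*Tarbp2* (ENSMUSG00000023051.10, chr15:102518192-102523676, plus strand) encodes the binding partner of DICER best known for helping it to process hairpins and load Argonaute. Its level was 69.5 FPKM at the GV stage, 28.3 at MII, 41.7 under TubA-10 and 10.9 under TubA-20. All 3 cultured libraries lay below GV and TubA-20 far below the others. *Tarbp2* fell 2.45-fold from GV to MII and 6.38-fold from GV to TubA-20, log2 ratios of -1.27 and -2.57, while GV was 1.67 times TubA-10. Among 21957 genes, 1273 had a lower log2 ratio than *Tarbp2* in MII and 484 in TubA-20. Its sign was the same under the 4 scalings, which gave log2 ratios of -1.40 to -1.04 for MII and -2.77 to -2.50 for TubA-20, all past 2-fold.

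The levels of *Dicer1* and *Tarbp2* in culture therefore lay on opposite sides of GV, and a ratio within a library does not depend on how libraries are scaled. *Dicer1* was at 0.556 times *Tarbp2* at the GV stage, 1.80 times at MII, 1.15 times under TubA-10 and 5.65 times under TubA-20. This ratio was 3.25-fold higher in MII than in GV, 2.06-fold higher in TubA-10 and 10.2-fold higher in TubA-20, and TubA-20 was 3.14-fold above MII. GV was the library with more *Tarbp2* than *Dicer1*, and the 3 cultured libraries held more *Dicer1*. The principal transcripts differ in length, 9851 nt for *Dicer1* and 1523 nt for *Tarbp2*. Over all genes the changes from GV differed with transcript length, as given below, and the part of length in this ratio was not tested.

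*Prkra* (ENSMUSG00000002731.6, chr2:76629898-76648015, minus strand) encodes PACT, the other partner of DICER, also known as an activator of the kinase PKR. It was at 1.35 FPKM at the GV stage, 0.568 at MII, 0.646 under TubA-10 and 0.388 under TubA-20, the same order of libraries as *Tarbp2*. The highest level was 3.47 times the lowest, while the log2 ratio of FPKM + 1 for TubA-20 against GV was -0.76 because the values are near the pseudocount. With a pseudocount of 0.01 it was -1.77. *Tarbp2* was the main partner mRNA in every library, at 51.6 times *Prkra* at the GV stage, 49.8 times at MII, 64.5 times under TubA-10 and 28.1 times under TubA-20.

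Among the Argonautes, *Ago3* (ENSMUSG00000028842.15, chr4:126331704-126429556, minus strand) was the highest in every library. Its level was 5.62 FPKM at the GV stage, 9.52 at MII, 7.63 under TubA-10 and 8.80 under TubA-20. GV was the lowest and MII the highest, with log2 ratios to GV of 0.67, 0.38 and 0.57. *Ago2* (ENSMUSG00000036698.10, chr15:73095844-73184935, minus strand), the gene of the slicer, was at 4.72 FPKM at the GV stage, 2.94 at MII, 3.16 under TubA-10 and 3.10 under TubA-20. Here GV was the highest and the cultured libraries lay within 0.08 of each other on the log2 scale, with ratios to GV of -0.54, -0.46 and -0.48. Neither gene passed 2-fold. *Chrac1* overlaps *Ago2* on the opposite strand.

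*Ago1* (ENSMUSG00000041530.16, chr4:126435012-126468583, minus strand) and *Ago4* (ENSMUSG00000042500.11, chr4:126489541-126533472, minus strand) lie beside *Ago3* in a cluster on chromosome 4, and their products bind miRNAs without being efficient slicers. *Ago1* was at 0.246 FPKM at the GV stage, 0.124 at MII, 0.158 under TubA-10 and 0.0867 under TubA-20. *Ago4* was at 0.186 FPKM at the GV stage, 0.0577 at MII, 0.0622 under TubA-10 and 0.0277 under TubA-20. Although the 3 genes are neighbours, *Ago3* was the member above GV in culture, and *Ago1* and *Ago4* were highest in GV. To place these low values, each was set beside the 5th percentile of single-transcript genes of similar length that were above 0.001 FPKM. In TubA-20 *Ago4* was 1.53 times that level, *Ago1* 5.06 times and *Prkra* 6.14 times, and in the other libraries the 3 genes were 5.45 to 23.7 times it. The level of *Ago4* in TubA-20 thus lay near the low end of detectable values, so its fold and its place in the order of libraries are uncertain.

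As shares of the summed Argonaute FPKM, *Ago3* took 52.2% at the GV stage, 75.3% at MII, 69.3% under TubA-10 and 73.2% under TubA-20. *Ago2* took 43.8% at the GV stage, 23.2% at MII, 28.7% under TubA-10 and 25.8% under TubA-20. The sum itself stayed between 10.8 and 12.6 FPKM, so the makeup of the Argonaute mRNAs differed more between GV and culture than their total did. *Ago3* was 1.19 times *Ago2* in GV and 2.42 to 3.24 times in the cultured libraries. *Ago1* and *Ago4* held at most 2.29% and 1.73%, both in GV.

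**Figure D3:**
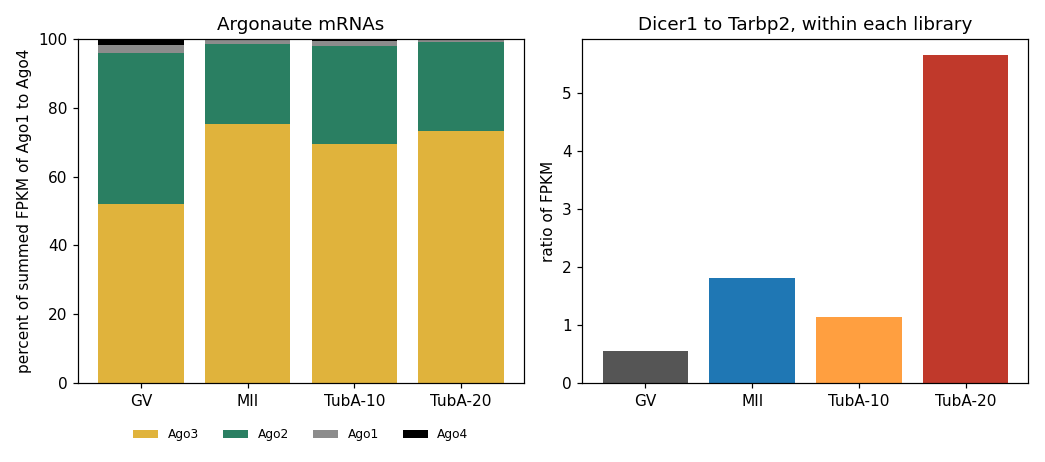
Left, each Argonaute gene as percent of the summed FPKM of *Ago1* to *Ago4* in a library, drawn as stacked bars, and right, the ratio of *Dicer1* to *Tarbp2* FPKM within a library. The share of *Ago3* is 52.2% in GV and 69.3% to 75.3% in culture, and the ratio of *Dicer1* to *Tarbp2* is 0.556 in GV and 5.65 in TubA-20.

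The treated oocytes were also compared with untreated oocytes of the same culture time. TubA-10 was close to MII, with 0 of the 10 genes past 2-fold in either direction, against 0.515% of all genes higher and 0.128% lower. Differences ranged from -0.29 for *Ago3* to 0.54 for *Tarbp2*, with a median of 0.02. In TubA-20, 1 of the 10 was past 2-fold lower than in MII, against 2.44% of all genes, and 0 higher, against 0.328%. That gene was *Tarbp2*, which was 2.60-fold lower in TubA-20 (log2 ratio -1.30, and -1.47 to -1.37 under the 4 scalings), and 189 genes had a lower ratio. The other 9 lay between -0.40 (*Dgcr8*) and 0.27 (*Dicer1*), with *Ago2* at 0.06 and on the other side of 0 under all 4 scalings.

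*Tarbp2* differed in opposite directions from MII at the pair of doses, with log2 ratios of 0.54 in TubA-10, which is not past 2-fold, and -1.30 in TubA-20. From TubA-10 to TubA-20 it fell 3.82-fold (log2 ratio -1.84), the only one of the 10 past 2-fold at this step, against 5.52% of all genes lower and 0.66% higher. Over the same step the log2 ratio was 0.36 for *Dicer1* and -0.44 for *Dgcr8*. The order of libraries from high to low was GV, TubA-10, MII, TubA-20 for *Tarbp2*, *Prkra*, *Dgcr8*, *Ago1* and *Ago4*. With 1 library each, neighbours in these orders could not be tested for a difference.

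*Tarbp2* and *Prkra* have the shortest transcripts of the 10, and across the genome genes with short transcripts were more often lower than in GV. The principal transcript is 1523 nt for *Tarbp2* and 1614 nt for *Prkra*, against 4320 nt (*Dgcr8*) to 15595 nt (*Ago3*) for the other 8 and a median of 2583 nt over 21561 genes. Of 3207 genes with at least 1 FPKM in GV and a transcript below 2000 nt, 43.3% passed 2-fold lower and 9.23% higher in TubA-20 against GV, with a median of -0.73. Between 2000 and 5000 nt the shares were 19.5% and 16.5% of 5257 genes, and above 5000 nt they were 7.59% and 23.7% of 1817 genes. *Dicer1*, *Xpo5*, *Ago2* and *Ago3* are in this last class. *Ago1* and *Ago4* have transcripts of that length, but were below 1 FPKM in GV and are not counted there. *Tarbp2* at -2.57 lay below the median of its length class. *Prkra* at -0.76 was near it, but its level of 1.35 FPKM in GV is close to the pseudocount, which damps the ratio. With a pseudocount of 0.01 the ratio of *Prkra* was -1.77. The class median was not recomputed that way, so the place of *Prkra* in its class is uncertain. In the class above 5000 nt, with a median of 0.57, *Dicer1* at 0.66 and *Ago3* at 0.57 were near that median. *Xpo5* at -0.55 and *Ago2* at -0.48 lay well below it. The ratios of *Ago4* (-0.21) and *Ago1* (-0.20) are damped by the pseudocount and were not placed in a class. *Drosha* at -0.24 and *Dgcr8* at -0.67 lay below the median of 0.10 in the middle class. In MII the lower shares were 33.9%, 12.3% and 4.68% from short to long, in TubA-10 23.4%, 7.72% and 3.14%, and for TubA-20 against MII 10.4%, 3.29% and 1.16%. The part of transcript length in the values of the 10 genes was not tested.

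**Figure D4:**
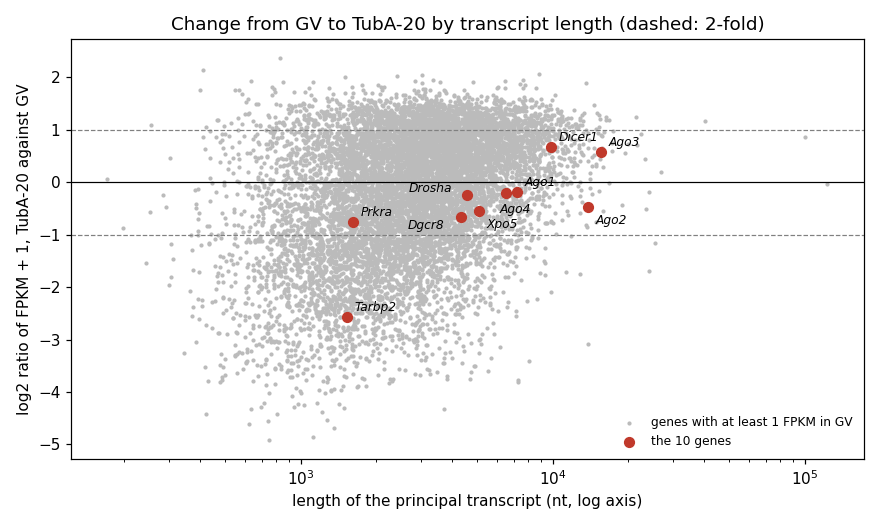
Log2 ratio of FPKM + 1 for TubA-20 against GV (vertical axis) by length of the principal transcript (horizontal axis, log scale), with genes of at least 1 FPKM in GV in grey, the 10 genes in red and dashed lines at 2-fold. *Tarbp2* at 1523 nt lies at -2.57 and *Ago3* at 15595 nt at 0.57.

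The other genes of the pathway were read from lists drawn by function, and their counts stand against the shares over all genes given above, 3.05% higher and 8.34% lower at MII, 0.742% and 5.6% under TubA-10, and 7.61% and 11.7% under TubA-20. With 5 to 20 genes a list, a count of 1 is near these shares. A gene below 1 FPKM in both libraries cannot pass 2-fold on this scale, which lowers the shares over all genes. Among genes with at least 1 FPKM in 1 of both libraries, the shares were 6.28% higher and 17.2% lower at MII. They were 1.53% and 11.6% under TubA-10, and 15.5% and 23.9% under TubA-20. Of 9 Microprocessor cofactors, 0 passed 2-fold in MII, 1 was lower in TubA-10, and 3 were higher (all genes 7.61%) and 1 lower (11.7%) in TubA-20, with medians of 0.59, 0.30 and 0.73. *Khsrp*, which binds the loops of certain miRNA precursors, was at 15.4 FPKM at the GV stage, 26.4 at MII, 19.2 under TubA-10 and 37.8 under TubA-20, and rose past 2-fold in TubA-20 (1.25). *Ncbp2*, a cap-binding protein, rose from 44.1 FPKM in GV to 106 in TubA-20 (1.25) and the helicase gene *Ddx17* from 4.47 to 11.4 (1.19). *Ddx17* was no longer past 2-fold when the median log2 ratio was set to 0. *Srrt*, which links the cap-binding complex to primary miRNA processing, fell from 28.6 FPKM in GV to 13.2 under TubA-10 (-1.06) and 10.7 under TubA-20 (-1.34), and its TubA-10 call was lost with equal *Gapdh*.

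Of 9 genes of precursor export, tailing and editing, 1 was higher and 1 lower in MII, 1 was lower in TubA-10 and 1 was higher in TubA-20, with medians of 0.04, 0.28 and 0.35. These counts are near the shares over all genes. The higher one was *Tut7*, a terminal uridylyltransferase of precursor miRNAs, at 4.26 FPKM at the GV stage, 10.1 at MII, 7.58 under TubA-10 and 10.1 under TubA-20. It rose by 1.07 on the log2 scale in both MII and TubA-20, a call that setting the median log2 ratio to 0 took below 2-fold.

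Of 17 partners of the RNA-induced silencing complex (RISC), 1 was higher and 1 lower in MII, 1 was lower in TubA-10, and 1 was higher and 3 lower in TubA-20, with medians of 0.09, 0.18 and 0.07. These counts too are near the shares over all genes. *Tnrc6b*, a GW182 scaffold that ties Argonaute to deadenylases, rose in MII from 2.96 to 7.63 FPKM (1.12). *Trim71*, a ubiquitin ligase known as a let-7 target, was at 10.0 FPKM at the GV stage, 4.35 at MII, 4.29 under TubA-10 and 2.80 under TubA-20, past 2-fold lower in each (-1.04, -1.06 and -1.54). *Limd1*, which bridges Argonaute and the translation machinery, rose in TubA-20 from 9.24 to 20.1 FPKM (1.04). The calls of *Tnrc6b* in MII and of *Limd1* in TubA-20 were lost when the median log2 ratio was set to 0, that of *Limd1* also with equal upper quartiles, and that of *Trim71* was lost in MII under every scaling but the median one and in TubA-10 with equal *Gapdh*. Of the RISC loading chaperones, 2 of 6 were lower in MII (all genes 8.34%) and in TubA-10 (5.6%), and 1 was higher (7.61%) and 2 lower (11.7%) in TubA-20. *Fkbp4*, a co-chaperone of HSP90, fell from 14.0 FPKM in GV to 6.16, 6.40 and 3.06 (-1.07, -1.02 and -1.88), and its calls in MII and TubA-10 were lost with equal FPKM sums or *Gapdh*, that in TubA-10 also with equal upper quartiles. *Hsp90aa1* stood at 1069 FPKM at the GV stage, 1643 at MII, 1504 under TubA-10 and 3046 under TubA-20 and *Hspa8* at 547, 230, 260 and 168. Both have processed copies in the genome that can share reads with them, so their values are uncertain. The call of *Hspa8* in TubA-10 was also lost with equal FPKM sums or *Gapdh*, which left 0 of the 6 chaperones lower there.

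The PIWI-interacting RNA (piRNA) pathway, which makes a separate class of small RNAs without DICER, held more lower genes than any of the other 5 lists and was also the longest list. Of 20 genes, 5 were lower at MII (all genes 8.34%), 3 under TubA-10 (5.6%) and 8 under TubA-20 (11.7%). In each, 0 were higher (3.05%, 0.742% and 7.61%), and the medians were -0.48, -0.35 and -0.58. In each comparison 16 of the 20 had at least 1 FPKM in 1 of both libraries. They held the same 5, 3 and 8 lower genes, against 17.2%, 11.6% and 23.9% of all such genes. *Gtsf1*, which assists target cleavage by PIWI proteins, was at 2008 FPKM at the GV stage, 623 at MII, 756 under TubA-10 and 243 under TubA-20 (-3.04 for TubA-20 against GV). *Mael*, needed for transposon silencing in the germ line, was at 105, 39.1, 50.8 and 14.6 FPKM (-2.76). *Pnldc1*, the nuclease that trims piRNA 3′ ends, was at 10.3, 3.96, 6.01 and 1.17 FPKM (-2.38). These were also the 3 of the 20 lower in TubA-20 than in MII, at -1.35, -1.36 and -1.19, against 2.44% of all genes. With at least 1 FPKM in 1 of both libraries they were 3 of 16, against 5.21%. *Tdrkh*, *Fkbp6*, *Henmt1* and *Tdrd5* were also lower in TubA-20, with log2 ratios to GV of -1.97, -1.74, -1.72 and -1.35, and the last of the 8 had under 5 FPKM in both libraries. All 8 had the same order of libraries as *Tarbp2*, but they were picked as lower in TubA-20 than in GV, which sets part of it. How many of all genes share this order was not counted. The 5 calls in MII, the 8 in TubA-20 and the 3 against MII held under all 4 scalings, and of the 3 in TubA-10 *Mael* was lost with equal FPKM sums or *Gapdh*. The 8 lower genes had a median transcript length of 2045 nt and the other 12 one of 3684 nt.

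Of 5 genes known as targets of oocyte endogenous siRNAs, 1 was lower in MII (all genes 8.34%) and 0 passed 2-fold in TubA-10 or TubA-20 (5.6% and 11.7% lower), with medians of 0.04, -0.11 and -0.06. The lower one was *Pdzd11*, at 162 FPKM at the GV stage, 77.0 at MII, 96.3 under TubA-10 and 88.0 under TubA-20 (-1.06 in MII), a call lost with equal FPKM sums or *Gapdh*. In TubA-20 *Pdzd11* passed 2-fold lower when the median log2 ratio was set to 0. Small RNAs themselves were not measured in these libraries.

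**Figure D5:**
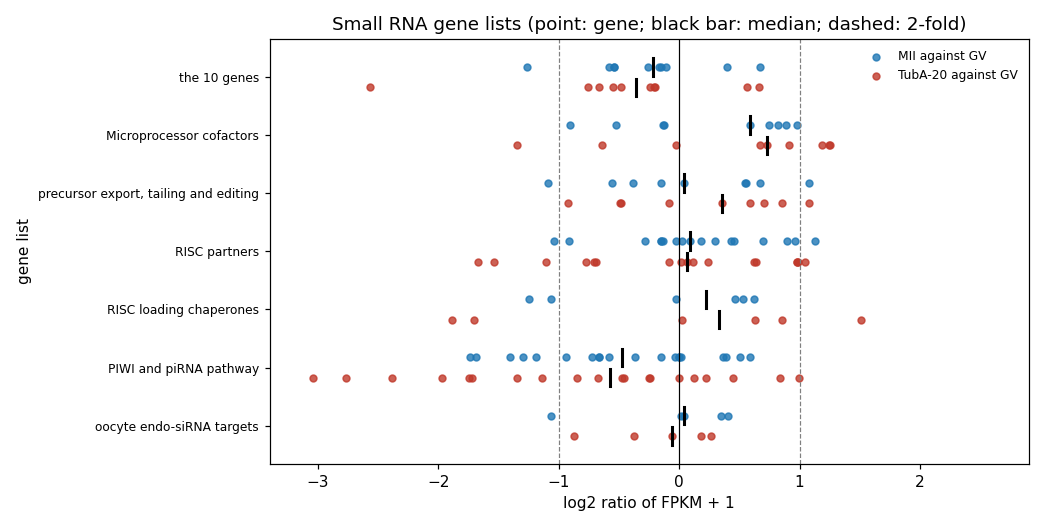
Log2 ratio of FPKM + 1 against GV (horizontal axis) for MII and TubA-20, with 1 point per gene, a black bar at the median of each list and dashed lines at 2-fold. The medians of the 10 genes are -0.21 and -0.36, those of the Microprocessor cofactors 0.59 and 0.73, and those of the piRNA pathway -0.48 and -0.58.

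Genes with the patterns most like those of *Dicer1* and *Ago2* were sought among 7892 genes with at least 5 FPKM in 1 library, by the Euclidean distance over the 4 centred log2 values. For *Dicer1* these were *Heatr6* (distance 0.029), *Ptdss1* (0.033), *Pnpla3* (0.040), *Myo19* (0.041) and *Orc1* (0.042). *Orc1*, for example, was at 29.1 FPKM at the GV stage, 38.0 at MII, 34.9 under TubA-10 and 44.8 under TubA-20. For *Ago2* they were *Tcf25* (0.026), *Glmn* (0.036), *Thumpd3* (0.043), *Lrwd1* (0.047) and *Adar* (0.055). *Adar*, which encodes an RNA editing enzyme, was at 21.7 FPKM at the GV stage, 14.5 at MII, 14.7 under TubA-10 and 15.2 under TubA-20. Over 4 libraries such closeness describes the shape of the values and nothing further.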

How the data were processed

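The authors deposited 1 table of FPKM values for the 4 libraries, made with cufflinks (strand-specific option) on mm10. The submitters' processing notes name STAR 2.5.0, Cufflinks and Cuffdiff 2.2.1, and read counts are not used here. The sources differ on RNA extraction, on pools or single oocytes and on the gene model. Of 21959 entries, 165 had no symbol in GENCODE M21 and kept their identifiers. Entries sharing a symbol were summed, which left 21957 genes. No scaling or filter was applied, and log2 ratios used a pseudocount of 1.

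The members and lists were chosen with earlier results of these data known. List genes could be named if past 2-fold in any of 6 comparisons with at least 5 FPKM in 1 of both libraries, and for *Dicer1* and *Ago2* the 5 genes nearest in pattern. Length classes, low-value percentiles and the CPE search were chosen after values were seen. Principal transcripts followed APPRIS ranks. Alternatives were pseudocounts of 0.1 and 0.01, minimum levels of 1 and 5 FPKM, 4 scalings (a median log2 ratio of 0, or the same FPKM sum, upper quartile or *Gapdh* level) and a 3-fold threshold. Python 3.11.15, numpy 2.4.6, pandas 2.3.3 and matplotlib 3.10.9 were used, and scripts were checked on simulated data.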

Additional observations from a re-analysis of the deposited data

How the results depend on the processing

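No paired analysis was possible because each condition had 1 library, and for the same reason none could be left out. Lower pseudocounts raised the number of the 10 genes past 2-fold. Against GV it went from 1 to 2 (pseudocount 0.1) and 3 (0.01) in MII, from 0 to 2 (0.01, *Ago4* and *Prkra*) in TubA-10, and from 1 to 3 (0.1) and 4 (0.01, *Tarbp2*, *Prkra*, *Ago1* and *Ago4*) in TubA-20. A 3-fold threshold left 0 in MII against GV and 0 in TubA-20 against MII, where the count had been 1 in each. The counts for TubA-10 against MII and TubA-20 against TubA-10 were the same under every alternative run. Of 492 log2 values of single members recomputed, 480 kept their side of the threshold, 10 passed it (*Prkra*, *Ago4* and *Ago1* with lower pseudocounts) and 2 no longer did (*Tarbp2* at 3-fold). None reversed a call. Over all genes, the shares higher and lower in MII than in GV were 3.05% and 8.34%, 1.52% and 9.55% with a median log2 ratio of 0, and 6.95% and 6.68% with equal *Gapdh*. In TubA-10 equal *Gapdh* gave 3.42% and 3.92%. Of 324 list counts recomputed, 74 moved by over 1.5 times. Of the levels below 1 FPKM (*Ago1*, *Ago4* and, outside GV, *Prkra*), that of *Ago4* in TubA-20 lay near the low end of detectable values. The fragments behind these levels were not counted.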
